A study of Homo sapiens with 8 samples.

Results

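The genes described here were the protein arginine methyltransferases PRMT1, PRMT2, PRMT3, PRMT5, PRMT6, PRMT7, PRMT8 and CARM1, together with WDR77 and CLNS1A, the partner proteins of PRMT5. Rows were selected by gene name, from a list of genes chosen with earlier results of these data known. Of these 10 genes, 9 had rows in the sgRNA tables and PRMT3 was not analysed here. Each of the 9 genes had 10 sgRNAs, which gave 90 of the 7775 sgRNAs against 779 genes. Another 80 sgRNAs were non-targeting controls.

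The sgRNAs were counted in a pooled CRISPR knockout screen in T1-160 cells, a Taxol-resistant derivative of SUM159PT, a triple-negative breast cancer line. Taxol (paclitaxel) stabilizes microtubules, and T1-160 cells had been obtained by raising its dose step by step. Cas9-expressing cells received EPIKOL, a lentiviral library against chromatin regulators, at 1000-fold representation and an MOI of 0.4, and were selected for 4 days with 5 µg/ml puromycin in 20 µM verapamil. All groups therefore carried Cas9, the library and the puromycin selection. The Taxol group (3 libraries) was grown in 160 nM Taxol and the DMSO group (3 libraries) in vehicle, both until 16 population doublings, and the AP group (2 libraries, replicates 1 and 3) was collected after puromycin, before the cultures were split. The labels do not say whether replicates came from separate infections, so the spread between them may be technical, and neither the knockouts nor the identity of the cells could be checked because only sgRNAs were counted.

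Arginine methyltransferases transfer methyl groups from S-adenosylmethionine to arginine side chains of histones, RNA-binding proteins and splicing factors. Type I enzymes, with PRMT1 as the main activity in most cells, make asymmetric dimethylarginine, the type II enzyme PRMT5 makes symmetric dimethylarginine and PRMT7 makes monomethylarginine. PRMT5 works in a complex with WDR77, also called MEP50, which helps it to hold its substrates, and CLNS1A, also called pICln, brings it the Sm proteins of the spliceosome.

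A sgRNA that is lost between 2 time points reports that cells carrying that knockout took a smaller share of the culture. The deposited values were normalized counts, scaled separately in each of the 3 comparison tables, so levels were compared only within a table. A gene's level in a library was log2(normalized count + 1) averaged over its 10 sgRNAs, and its log2 fold change was the difference of the group means, given below with the pooled SD between libraries. Genes were called depleted or enriched when the ranks of their sgRNAs gave an adjusted p under 0.05 by robust rank aggregation (RRA), a one-sided exact test of whether a gene's sgRNAs lie nearer one end of the ranking than evenly spread ranks would. That test sees the spread between libraries only through the ranking of single sgRNAs by limma's moderated t, so limma on the gene levels, a two-sided test against the spread between libraries, is given beside it.

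The recovered read totals were 2045984 to 11771418 in Taxol libraries, 3831518 to 9893048 in DMSO libraries and 4348209 to 7682090 in AP libraries, or 260 to 1499 reads per sgRNA. In Taxol libraries the top 10 sgRNAs took 6.23% to 10.6% of all counts, against 2.36% to 2.80% in DMSO libraries and 1.53% to 2.73% in AP libraries. The sgRNAs of the 9 genes had between 8 and 7052 reads in a library. Their levels in AP libraries differed: PRMT1 and PRMT5 lay at the 12.6th and 17.4th percentile of the 779 genes, WDR77 at the 47.9th and CLNS1A at the 98.6th. AP was collected after infection and 4 days of puromycin, so changes before that point were not measured.

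PRMT5, WDR77 and PRMT1 were depleted after growth in DMSO compared with AP, and the other 6 genes were not called in either direction. The 3 depleted genes stood against 2.05% of all 779 genes called depleted in this comparison. None of the 9 was called enriched, against 0.128% of all genes. The median log2 fold change of the 9 genes was -0.16, against 0.15 over all genes, and 5 of the 9 were below 0, against 36.7% of all genes. Non-targeting sgRNAs had a median of 0.43 in the same table, so the zero of the deposited scaling did not lie at the control sgRNAs.

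PRMT5 had the lowest log2 fold change of the 779 genes in DMSO relative to AP. Its level was 7.26, 7.50 and 7.36 in DMSO libraries 1, 2 and 3, against 8.64 and 8.45 in AP libraries 1 and 3. All DMSO libraries were below both AP libraries, as for 14.1% of all genes, and the spread within each group was small beside the gap. This gave a log2 fold change of -1.17 ± 0.13 (pooled SD, n = 3 and 2), a DMSO level 0.445 times that in AP. The gene was depleted by RRA (adjusted p = 0.000284) and lower by limma on gene levels (adjusted p = 0.0227, interval at 95% confidence -1.65 to -0.68), a limma call that 1.41% of all genes shared. It was called by RRA after removal of any 1 of the 5 libraries, with fold changes between -1.27 and -1.07.

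The PRMT5 sgRNAs mostly had the same direction: 9 of 10 were lower in DMSO, against 3379 of 7775 over all genes. Of the 10, 7 had log2 fold changes below -1 and 7 had every DMSO library below every AP library. The shares of all sgRNAs that did so were not computed. The lowest was sgRNA 4926 (sgRNAs are named by the number in their library identifier), at a normalized count of 9.96, 20.2 and 12.7 in the DMSO libraries, against 68.3 and 60.6 in the AP libraries. This sgRNA was rare, with 8, 24 and 8 reads in the DMSO libraries. A more abundant one, sgRNA 4930, had 471, 365 and 483 in DMSO and 1566 and 1198 in AP. Also abundant, sgRNA 4921 had 2713, 1314 and 552 in DMSO and 1861 and 1497 in AP. Its log2 fold change was -0.41, with DMSO library 1 above both AP libraries. The only sgRNA that was not lower was 4924, at 1622, 2190 and 1851 in DMSO and 1544 and 1027 in AP, a log2 fold change of 0.57. A relation between abundance and fold change was not tested. The median over the 10 sgRNAs was -1.45. No single sgRNA of any gene passed the adjusted threshold in limma, and 5 PRMT5 sgRNAs were lower at an unadjusted p under 0.05. Over all genes, 535 of 7775 sgRNAs passed that unadjusted level in either direction.

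WDR77, the partner of PRMT5 in the methylosome, had levels of 8.02, 8.04 and 8.15 in the DMSO libraries, against 9.23 and 8.78 in the AP libraries. The groups did not overlap, as for 14.1% of all genes in that direction, and the gap to AP library 3 was the smaller one. Its log2 fold change was -0.94 ± 0.19 (pooled SD, n = 3 and 2), the 11th lowest of 779 genes, with depletion by RRA (adjusted p = 0.0412) and a lower level by limma on gene levels (adjusted p = 0.0315, interval -1.41 to -0.46). The RRA call was lost without DMSO library 1, DMSO library 3 or AP library 1 (adjusted p = 0.145, 0.126 and 0.110).

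The WDR77 sgRNAs lay in 2 sets. All 10 were lower in DMSO, but 4 of them (7034, 7038, 7039 and 7040) had log2 fold changes between -2.75 and -1.47 and the other 6 lay between -0.21 and -0.03. The sets were formed after their values were seen and are given without a test. The lowest, sgRNA 7038, had 43.6, 75.6 and 58.6 in DMSO and 375 and 413 in AP. The next, sgRNA 7034, had 21.2, 44.5 and 30.1 in DMSO and 273 and 71.2 in AP, so the AP libraries themselves differed for it. Among the other set, sgRNA 7035 had 280, 313 and 209 in DMSO and 285 and 305 in AP, with no gap between the groups. The mean over the 4 sgRNAs was -2.11 and that over the 6 was -0.16, and the median over all 10 was -0.21, far from the mean of -0.94 that the 4 sgRNAs set.

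**Figure D1:**
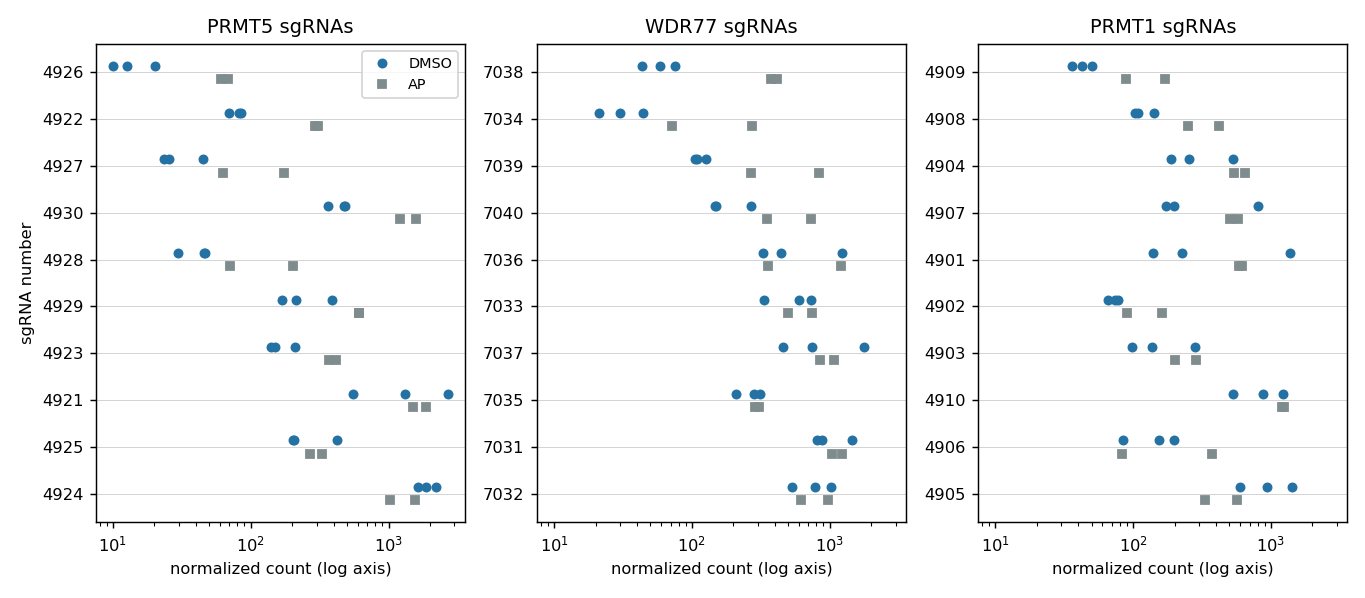
Normalized counts (log axis) of the 10 sgRNAs of PRMT5, WDR77 and PRMT1 in the DMSO and AP libraries; each circle is a DMSO library (n = 3), each square an AP library (n = 2), and rows run from the lowest log2 fold change at the top to the highest at the bottom. For PRMT5, 7 sgRNAs have all DMSO libraries below both AP libraries, while 4 WDR77 sgRNAs do so and the other 6 overlap. The share over all sgRNAs was not computed.

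CLNS1A, the adaptor that presents Sm proteins to PRMT5, was not called. Its level was 10.16, 10.07 and 9.60 in DMSO, against 9.89 and 9.90 in AP, so the DMSO libraries lay on both sides of AP. The difference was 0.05 ± 0.25 (log2, pooled SD), with a limma interval of -0.42 to 0.52. The interval leaves out the fold changes measured for PRMT5 and WDR77, but holds the WDR77 median over sgRNAs of -0.21. No difference between genes was tested. The CLNS1A value was -0.35 when the table was centred on non-targeting sgRNAs. The CLNS1A sgRNAs disagreed, from sgRNA 1417 at 182, 226 and 155 in DMSO against 543 and 679 in AP to sgRNA 1412 at 1503, 2120 and 1257 in DMSO against 210 and 902 in AP. Both sgRNAs passed an unadjusted p under 0.05 in limma, in opposite directions.

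Among the type I enzymes, PRMT1 was depleted. Its level was 7.43, 7.71 and 8.08 in DMSO, against 8.42 and 8.41 in AP. Every DMSO library was below both AP libraries, as for 14.1% of all genes. The log2 fold change was -0.68 ± 0.26 (pooled SD, n = 3 and 2), the 26th lowest of 779, with 9 of 10 sgRNAs lower and a median over sgRNAs of -0.75. RRA gave an adjusted p of 0.0189, while limma on gene levels did not pass (adjusted p = 0.159, interval -1.19 to -0.17). The RRA call was also lost without DMSO library 1, 2 or 3 or AP library 3 (adjusted p = 0.463, 0.312, 0.0725 and 0.0974).

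The sgRNAs of PRMT1 showed where the spread lay. The lowest, sgRNA 4909, had 36.1, 50.4 and 42.8 in DMSO and 171 and 89.1 in AP, and sgRNA 4908 had 103, 141 and 108 in DMSO and 422 and 251 in AP. For sgRNA 4901, DMSO libraries 1 and 2 were at 139 and 227 but library 3 was at 1376, against 618 and 587 in AP. The only one with a positive fold change was sgRNA 4905 (1.09), at 1418, 596 and 934 in DMSO and 332 and 566 in AP. Of the 10 sgRNAs, 4 had all DMSO libraries below both AP libraries, a count without a share over all sgRNAs beside it.

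CARM1, PRMT6 and PRMT2, also type I enzymes, were not called by RRA. CARM1, a coactivator of nuclear receptors that methylates histone H3, had levels of 8.96, 9.17 and 8.79 in DMSO, against 9.14 and 9.13 in AP, a log2 fold change of -0.16 ± 0.16 with 5 of 10 sgRNAs lower. PRMT6, a nuclear enzyme, had 9.58, 9.93 and 9.08 in DMSO, against 9.23 and 9.46 in AP (0.19 ± 0.36). PRMT2, a weak methyltransferase with an SH3 domain, had 9.28, 9.32 and 9.01 in DMSO, against 9.29 and 8.80 in AP (0.16 ± 0.24). The groups overlapped for these 3 genes, and the limma intervals were -0.61 to 0.29 for CARM1, -0.32 to 0.69 for PRMT6 and -0.31 to 0.62 for PRMT2. The fold changes of PRMT6 and PRMT2 turned negative when the tables were centred on non-targeting sgRNAs (-0.21 and -0.24). CARM1 stood at -0.56 with that centring, and the median of all genes at -0.25.

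PRMT8, a membrane-anchored enzyme known chiefly from neurons, had the highest value of the 9 genes. Its level was 9.70, 9.25 and 9.39 in DMSO, against 8.90 and 9.04 in AP, with all DMSO libraries above both AP libraries, as for 29.3% of all genes. The log2 fold change was 0.48 ± 0.19, close to the non-targeting median of 0.43, and RRA did not call it enriched (adjusted p = 0.832). PRMT7, the monomethylating enzyme, had 9.31, 9.22 and 9.53 in DMSO, against 9.72 and 9.63 in AP. All DMSO libraries were below AP, as for 14.1% of all genes, and 9 of 10 sgRNAs were lower. No sgRNA went below -1, however, and the log2 fold change of -0.32 ± 0.13 was not called (RRA adjusted p = 0.789). With the table centred on non-targeting sgRNAs, PRMT7 had -0.72 and was still not called (RRA adjusted p = 0.715).

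Agreement among the sgRNAs of a gene differed over the 9 genes in DMSO relative to AP. The SD over 10 sgRNAs was widest for WDR77 (1.05), with its separate sets, and CLNS1A (0.96), with sgRNAs in both directions, and narrowest for PRMT7 (0.41) and PRMT8 (0.50). PRMT5 lay at 0.87, PRMT6 at 0.74, PRMT1 and CARM1 at 0.72 and PRMT2 at 0.55. For CARM1 the range was -1.56 for sgRNA 958 to 0.57 for sgRNA 951, for PRMT6 it was -1.09 to 1.29, for PRMT2 -0.72 to 1.16, for PRMT7 -0.94 to 0.47 and for PRMT8 -0.35 to 1.20. Of the 90 sgRNAs, 56 were lower in DMSO, against 3379 of 7775 over all genes, and 14 had an unadjusted p under 0.05 in limma, against 535 of 7775.

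**Figure D2:**
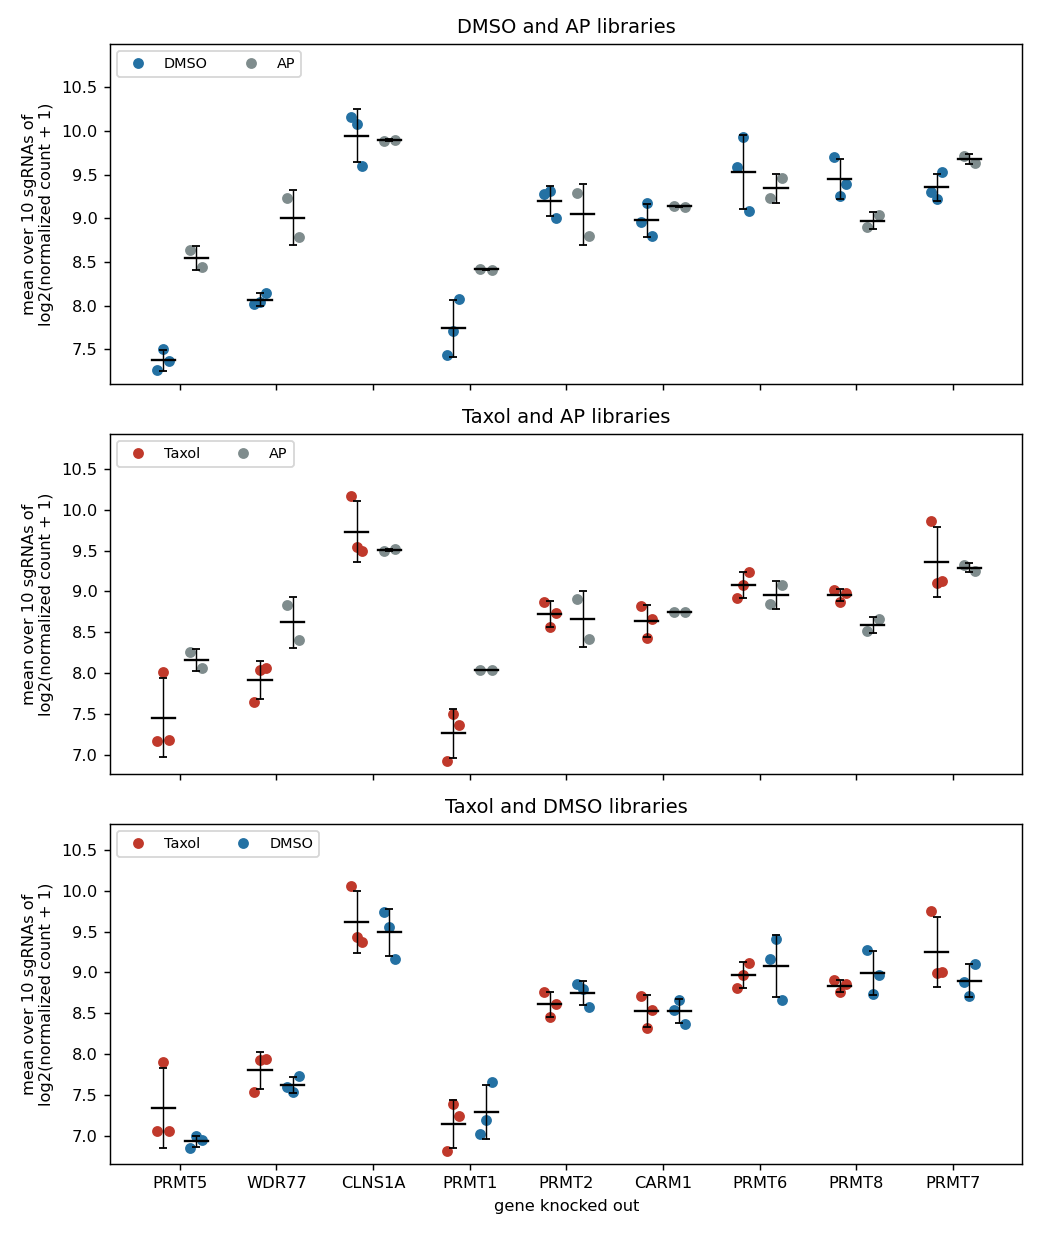
Levels of the 9 genes, as log2(normalized count + 1) averaged over 10 sgRNAs; each point is a library, bars are the group mean ± SD (n = 3 for Taxol and DMSO, n = 2 for AP), and each panel is one separately scaled table. PRMT5, WDR77 and PRMT1 lie below AP in all DMSO and all Taxol libraries, and the bottom panel shows Taxol and DMSO libraries overlapping for 8 of the 9 genes, PRMT5 being the exception.

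The same 3 genes, PRMT1, PRMT5 and WDR77, were depleted in Taxol relative to AP, against 4.62% of all genes, and none of the 9 was enriched, against 1.41% of all genes. This comparison shares its AP libraries with the one above, so the calls are not independent of it. The median log2 fold change of the 9 genes was 0.06, against 0.20 over all genes, and 4 of the 9 were below 0, against 32.3% of all genes. Limma on gene levels called none of the 9 genes, and over all 779 genes it called 0% lower and 0.128% higher. PRMT1, PRMT5 and WDR77 had an unadjusted p under 0.05 there and were lower, as 6.29% of all genes were, and none of the 9 was higher at that level, against 16.9% of all genes.

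PRMT1 had levels of 6.93, 7.50 and 7.36 in Taxol libraries 1, 2 and 3, against 8.03 and 8.03 in AP libraries 1 and 3. The groups did not overlap, as for 14.5% of all genes in that direction, and all 10 sgRNAs were lower in Taxol. Its log2 fold change was -0.77 ± 0.24 (pooled SD, n = 3 and 2), the 9th lowest of 779 genes (RRA adjusted p = 0.0297, limma on gene levels adjusted p = 0.0921). The lowest sgRNA, 4904, had 123, 161 and 153 in Taxol and 411 and 499 in AP. Next came sgRNA 4901, at 154, 217 and 132 in Taxol and 471 and 450 in AP. The RRA call was lost after removal of any 1 library (adjusted p between 0.0543 and 0.227).

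PRMT5 had levels of 7.17, 8.01 and 7.18 in Taxol, against 8.25 and 8.07 in AP. All Taxol libraries were below both AP libraries, as for 14.5% of all genes, but library 2 lay just under AP library 3. The log2 fold change was -0.71 ± 0.40 (pooled SD), with 8 of 10 sgRNAs lower (RRA adjusted p = 0.0111, limma on gene levels adjusted p = 0.156). Taxol library 2 stood apart most at sgRNA 4927, which had 31.2, 777 and 24.0 in the Taxol libraries and 134 and 48.3 in AP. The value was -0.79 ± 0.19 without that sgRNA and -0.99 without Taxol library 2, both settings chosen or read after the values were seen. The RRA call was lost without Taxol library 3 or AP library 3 (adjusted p = 0.0606 and 0.0910).

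WDR77 had levels of 7.65, 8.04 and 8.05 in Taxol, against 8.84 and 8.40 in AP. The groups were without overlap, as for 14.5% of all genes in that direction. This amounted to a log2 fold change of -0.71 ± 0.26 (pooled SD, RRA adjusted p = 0.0386, limma on gene levels adjusted p = 0.118). The 4 sgRNAs that were lowest in DMSO relative to AP had a mean of -1.48 here. The other 6 had a mean of -0.19, and sgRNA 7037 was the lowest of them at -1.06. That value was below sgRNA 7040 of the low set, at -0.95, so the sets overlapped here. The same AP libraries helped to choose those 4 sgRNAs, so this contrast is a description. For sgRNA 7038 the counts were 63.8, 85.5 and 79.1 in Taxol and 286 and 317 in AP. The RRA call was lost after removal of any 1 library (adjusted p between 0.0573 and 0.233).

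The other 6 genes were not called in Taxol relative to AP. Their log2 fold changes were 0.36 ± 0.09 for PRMT8, 0.22 ± 0.31 for CLNS1A, 0.12 ± 0.16 for PRMT6, 0.07 ± 0.35 for PRMT7, 0.06 ± 0.24 for PRMT2 and -0.11 ± 0.16 for CARM1 (pooled SD, n = 3 and 2). Of these, only PRMT8 had all Taxol libraries on one side of AP, at 9.01, 8.87 and 8.98 in Taxol, against 8.52 and 8.66 in AP, as was the case above AP for 32.3% of all genes. The non-targeting sgRNAs had a median of 0.68, above all 6 values. Centred on them, all 6 genes had negative fold changes, from -0.71 for CARM1 to -0.24 for PRMT8. The median of all genes was then -0.40.

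**Figure D3:**
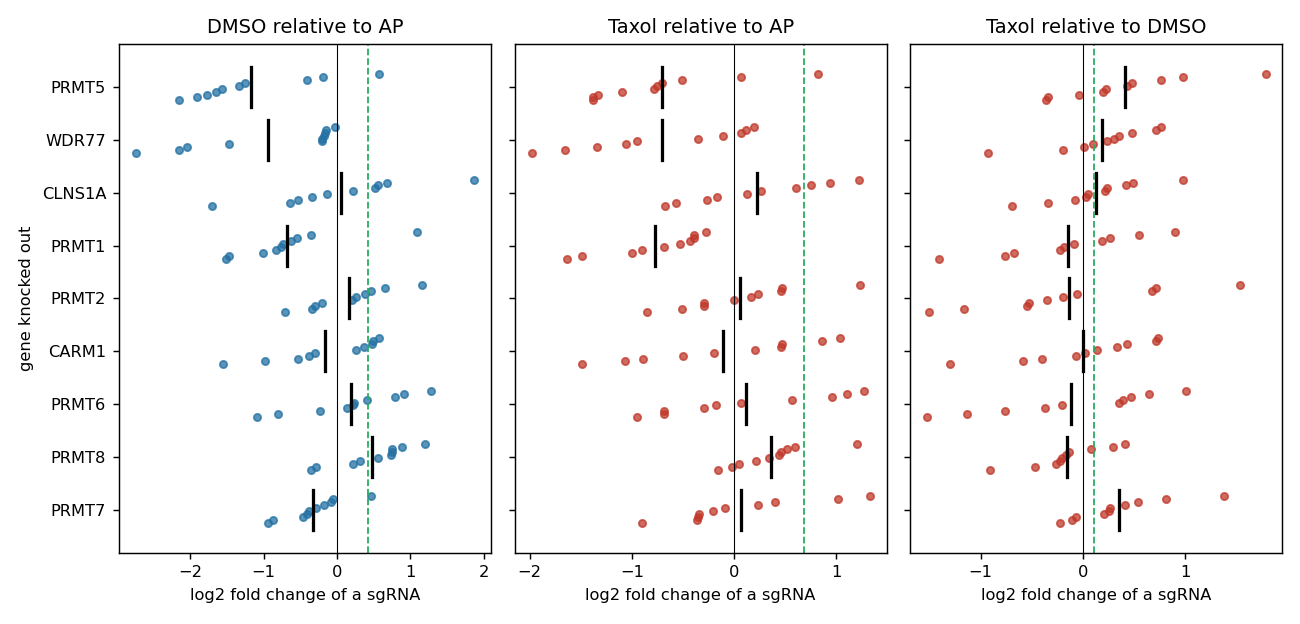
Log2 fold change of each sgRNA (points, 10 per gene) of the 9 genes in the 3 comparisons; the black bar is the mean over a gene's sgRNAs, the solid vertical line is 0 and the dashed line is the median of the 80 non-targeting sgRNAs (0.43, 0.68 and 0.11 from left to right). In DMSO relative to AP, PRMT5 sgRNAs lie to the left except 1, and WDR77 sgRNAs fall into 4 far to the left and 6 near 0. In Taxol relative to AP those WDR77 sets overlap. The right panel has a single PRMT5 point at 1.78, sgRNA 4927.

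The comparison of Taxol with DMSO asks which knockouts alter growth of the resistant cells in the drug itself. None of the 9 genes was depleted or enriched in Taxol relative to DMSO, where 0.257% of all genes were called depleted and 0.128% enriched. Limma on gene levels also called none of the 9, and over all genes it called 0% lower and 0.128% higher. None of the 9 had an unadjusted p under 0.05 there, against 1.54% of all genes lower and 4.62% higher. The median log2 fold change of the 9 genes was 0.00, against 0.03 over all genes, and 4 of the 9 were below 0, against 44.9% of all genes. None of the 9 had all Taxol libraries below all DMSO libraries, as 4.49% of all genes did. The non-targeting median was 0.11.

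PRMT5 had the highest log2 fold change of the 9 genes in this comparison. Its level was 7.06, 7.90 and 7.05 in Taxol, against 6.85, 6.99 and 6.94 in DMSO. All Taxol libraries were above all DMSO libraries, as for 6.29% of all genes, but libraries 1 and 3 only narrowly. The log2 fold change was 0.41 ± 0.35 (pooled SD, n = 3 each), and RRA gave an unadjusted p of 0.0381 for enrichment, a level that 6.55% of all genes passed, and an adjusted p of 0.680. Limma on gene levels gave an adjusted p of 0.839 and an interval of -0.06 to 0.88. The value was 0.13 without Taxol library 2 and 0.26 ± 0.17 without sgRNA 4927, which had 28.8, 719 and 22.0 in Taxol and 17.7, 31.7 and 18.8 in DMSO. The adjusted p for PRMT5 lay between 0.675 and 1 over the 13 alternatives. The sgRNA 4926, rare in both groups, had 14.8, 27.1 and 22.0 in Taxol and 7.44, 14.1 and 9.42 in DMSO.

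WDR77 had levels of 7.53, 7.93 and 7.93 in Taxol, against 7.60, 7.53 and 7.72 in DMSO, a log2 fold change of 0.18 ± 0.18 with 8 of 10 sgRNAs higher, or -0.13 when every library was scaled to the same total. The 4 sgRNAs that were lowest in DMSO relative to AP had a mean of 0.57 ± 0.29, and the other 6 a mean of -0.08 ± 0.25. The same DMSO libraries chose those 4 sgRNAs, so this contrast is a description. PRMT1 had 6.82, 7.39 and 7.24 in Taxol, against 7.02, 7.20 and 7.65 in DMSO (-0.14 ± 0.31), with the groups overlapping. Its sgRNA 4905, high in DMSO, had 232, 265 and 264 in Taxol and 1059, 416 and 694 in DMSO.

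PRMT7 had levels of 9.75, 8.99 and 9.01 in Taxol, against 8.89, 8.71 and 9.10 in DMSO. The log2 fold change of 0.35 ± 0.34 rested on Taxol library 1 and was 0.10 without it. PRMT2 had 8.76, 8.45 and 8.61 in Taxol, against 8.86, 8.80 and 8.58 in DMSO (-0.14 ± 0.15). It passed the unadjusted RRA threshold for depletion (exact p = 0.0378, adjusted p = 0.917), as did 4.75% of all genes. Its sgRNAs ran from -1.50 for sgRNA 4918 to 1.53 for sgRNA 4912. The log2 fold changes of CLNS1A (0.13 ± 0.34), CARM1 (0.00 ± 0.17), PRMT6 (-0.11 ± 0.29) and PRMT8 (-0.16 ± 0.20) were within their spread between libraries.

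The intervals, from a fit without replicate pairing, show which differences between Taxol and DMSO these 6 libraries leave possible. At 95% confidence limma placed the log2 fold change between -0.61 and 0.32 for PRMT1, between -0.25 and 0.62 for WDR77, between -0.41 and 0.67 for CLNS1A, between -0.59 and 0.31 for PRMT2 and between -0.15 and 0.85 for PRMT7. For CARM1, PRMT6 and PRMT8 the intervals were -0.44 to 0.45, -0.60 to 0.37 and -0.62 to 0.31.

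**Figure D4:**
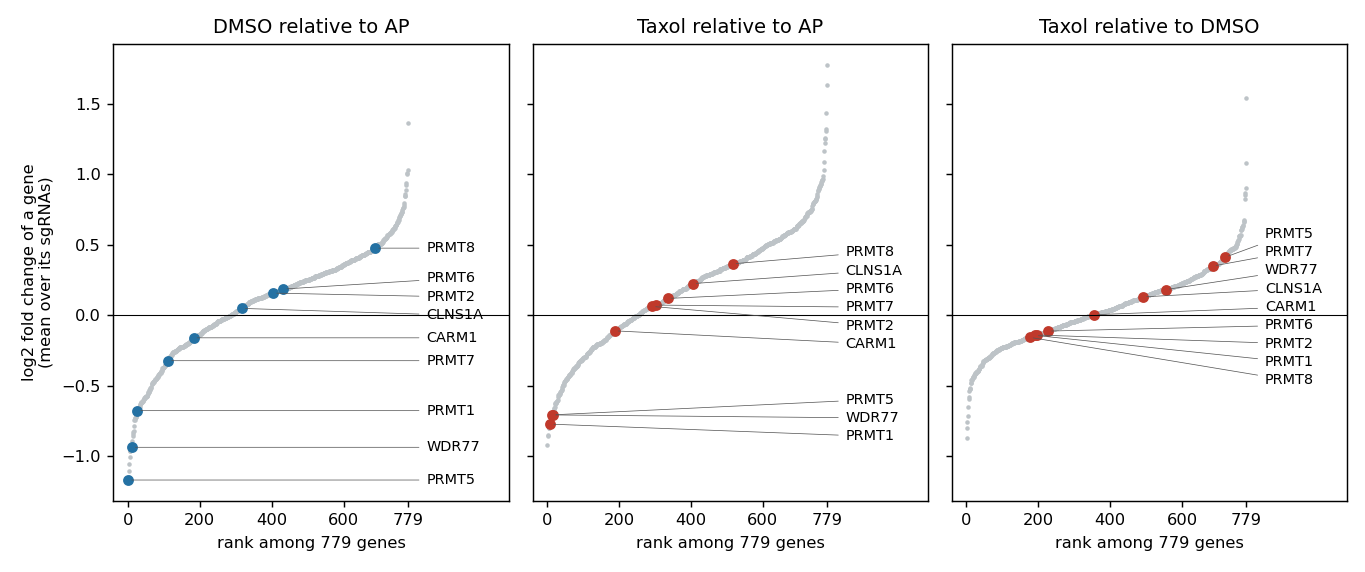
Log2 fold change of all 779 genes (grey points, mean over sgRNAs) in rank order in the 3 comparisons, with the 9 genes in colour and named. PRMT5 is the lowest gene in DMSO relative to AP, PRMT1, WDR77 and PRMT5 lie among the 15 lowest in Taxol relative to AP, and the 9 genes lie between ranks 176 (PRMT8) and 720 (PRMT5) in Taxol relative to DMSO.

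Other genes of arginine methylation were taken from 2 lists, also chosen with earlier results of these data known. The first held 18 genes for another methyltransferase, adaptors, readers of methylarginine, arginine deiminases and methyl donor metabolism, of which 8 were measured (PRMT9, TDRD3, TDRKH, JMJD6 and PADI1 to PADI4). No gene of this list was called in any comparison. In DMSO relative to AP its median log2 fold change was 0.39, against 0.15 over all genes, and 5 of the 8 passed the unadjusted RRA threshold for enrichment, against 8.09% of all genes. These were PADI1 (0.72 ± 0.22), TDRKH (0.71 ± 0.39), PADI3 (0.70 ± 0.53), JMJD6 (0.50 ± 0.23) and PADI4 (0.27 ± 0.24). The non-targeting median in this comparison was 0.43, above the list median and above PADI4, and below the other genes named. The PADI genes encode deiminases that turn arginine into citrulline, and TDRKH is a Tudor domain protein. JMJD6 is a Jumonji-domain oxygenase that was reported to demethylate arginine. In Taxol relative to DMSO, JMJD6 had 1.08 ± 0.50 and passed the unadjusted threshold for enrichment (RRA adjusted p = 0.101), as did 6.55% of all genes. PADI2 (-0.31 ± 0.13) passed the unadjusted threshold for depletion there, as did 4.75% of all genes. In Taxol relative to AP, JMJD6 had 1.63 ± 0.59 (RRA adjusted p = 0.0805) and was the only gene of the 8 past the unadjusted threshold for enrichment, against 8.34% of all genes.

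The second list held 21 names of reported substrates, of which 8 were measured (FBL, NCL, TP53BP1, EP300, CREBBP, NCOA3, SMARCC1 and RUVBL1). FBL, the nucleolar methyltransferase fibrillarin, was depleted in DMSO relative to AP (-1.004 ± 0.37, RRA adjusted p = 0.00130), where limma on gene levels also called it (adjusted p = 0.0439). It was depleted by RRA in Taxol relative to AP (-0.80 ± 0.23, RRA adjusted p = 0.0138), where limma did not call it (adjusted p = 0.0876). RRA called 2.05% and 4.62% of all genes depleted in these comparisons. EP300 and CREBBP, paralogous histone acetyltransferases that CARM1 methylates, were enriched by RRA in Taxol relative to AP, by 1.43 ± 0.44 and 1.31 ± 0.45 on the log2 scale (RRA adjusted p = 0.000161 and 0.000605), as were 1.41% of all genes. Limma on gene levels did not call either (adjusted p = 0.0753 and 0.0744). In DMSO relative to AP, CREBBP (1.03 ± 0.23) and EP300 (0.54 ± 0.26) passed only the unadjusted RRA threshold for enrichment, as did 8.09% of all genes. CREBBP also passed limma on gene levels (adjusted p = 0.0227), a call higher in DMSO that 0.77% of all genes shared. RUVBL1 (-0.59 ± 0.30), an ATPase of chromatin remodelling complexes, passed the unadjusted RRA threshold for depletion, as did 11.8% of all genes. In Taxol relative to DMSO no gene of this list was called. EP300 (0.85 ± 0.42) and NCL (0.30 ± 0.12) passed the unadjusted threshold for enrichment, as did 6.55% of all genes. The medians of this list were -0.02 in DMSO relative to AP, -0.07 in Taxol relative to AP and 0.20 in Taxol relative to DMSO, against 0.15, 0.20 and 0.03 over all genes.

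For the 3 depleted genes, the genes with the nearest pattern were found by the Euclidean distance over 6 values, the level in each DMSO and Taxol library minus the AP mean of its table. The nearest to PRMT5 were TRMT112 (distance 0.42), an activator of several methyltransferases, PPP4C (0.56), a protein phosphatase subunit, and DMAP1 (0.68), a subunit of chromatin remodelling complexes, against a median distance of 2.95 over all genes. The nearest to WDR77 were DMAP1 (0.22), RMI1 (0.26), which acts in DNA repair, and PPP4C (0.44), against a median of 2.58. The nearest to PRMT1 were RPS15A (0.34), a ribosomal protein, HINFP (0.36), a transcription factor of histone genes, and UBE2T (0.37), a ubiquitin-conjugating enzyme, against a median of 2.43. These distances are descriptions over libraries that share AP. The genes named were picked as the nearest, so they lie below the median by construction.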

How the data were processed

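The sgRNA tables deposited by the authors, 1 for each of 3 comparisons, gave normalized counts, scaled separately in each table and with the libraries of a group joined by slashes. The submitters' processing notes name MAGeCK 0.5.8. For read mapping and scaling, no source used here gave the options. The values in a cell were taken in the order of the replicate numbers. The AP cells held 3 values while the labels gave replicates 1 and 3, so the second value was left out (2 unused value columns over the tables). The authors' means, fold changes, scores and p-values in these tables, and their gene tables of RRA scores, p-values and fold changes, were not used.

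Log2(normalized count + 1) was fitted per sgRNA with limma 3.58.1 in R 4.3.3 (eBayes with trend). sgRNAs were ranked by moderated t, and RRA over ranks in the lowest or highest 25% gave an exact one-sided p per gene, adjusted by Benjamini-Hochberg over 779 genes within each direction. The test was checked on simulated data. Read totals were recovered from the step between values, and 99.0% to 100.0% of values were whole within 0.1 read. All intervals come from limma on gene levels and all precision is limited by 2 or 3 libraries per group.

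The fits reported had no replicate block, and a blocked fit was run as an alternative. Same-numbered Taxol and DMSO libraries deviated together weakly from their group means. Across gene levels r was 0.19, 0.15 and 0.22 for numbers 1, 2 and 3. The labels do not say whether equal numbers mean paired libraries. The SDs and intervals given take no account of such pairing. AP shares only numbers 1 and 3, and same-numbered libraries did not deviate together there (r = -0.00021 and -0.053 with DMSO, -0.046 and 0.043 with Taxol). All 9 measured genes were named in each comparison. Genes of the 2 other lists were named where they passed the unadjusted or adjusted RRA threshold, and the 3 nearest genes were named for each gene called in DMSO relative to AP. The genes and lists were chosen with earlier results of these data known. Alternatives were another pseudocount (5), leaving out sgRNAs with a mean count under 50, centring on non-targeting sgRNAs, limma on gene levels, the median over sgRNAs, a replicate block, 10% of ranks, equal library totals and leaving out each library.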

Additional observations from a re-analysis of the deposited data

How the results depend on the processing

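In DMSO relative to AP, 3 of the 9 genes were depleted. The count was 1 (PRMT5) with 10% of ranks and 1 to 2 when each library was left out in turn. It was 2 (PRMT5 and WDR77) with limma on gene levels. PRMT5 was called under all 12 alternatives that repeat the test, WDR77 under 8 and PRMT1 under 5. The median over sgRNAs changes the value only and was not counted. In Taxol relative to AP, 3 were depleted. The count was 0 with limma on gene levels, 0 with 10% of ranks, 1 (PRMT5) with equal library totals, an alternative chosen after seeing the data, and 0 to 1 when each library was left out, with 0 without Taxol library 3 or AP library 3. The other counts, no enriched gene in any comparison and no depleted gene in Taxol relative to DMSO, were the same under every alternative run. The causes were not tested.

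With the replicate number as a block, 2 genes (PRMT5 and WDR77) were depleted in DMSO relative to AP and 1 (PRMT5) in Taxol relative to AP. PRMT1 (RRA adjusted p = 0.213 and 0.0589) and WDR77 in Taxol relative to AP (0.0802) were lost. For numbers 1 and 3, AP libraries did not deviate together with the DMSO and Taxol libraries. These fits rest on those numbers, since number 2 has no AP library. The block also gave -0.012 for PRMT6 and -0.017 for CLNS1A in DMSO relative to AP. It changed no call in Taxol relative to DMSO.

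Centring on non-targeting sgRNAs moved the median of all genes by -0.16 in Taxol relative to DMSO, -0.40 in DMSO relative to AP and -0.60 in Taxol relative to AP, and equal totals moved it by -0.31, -0.38 and -0.74. The share of all genes below 0 was then 66.4%, 81.1% and 87.7% with centring and 84.6%, 79.2% and 94.1% with equal totals. Signs turned only for genes that were not called. With centring the log2 fold change was -0.15 for CARM1 and -0.025 for CLNS1A in Taxol relative to DMSO. It was -0.24 for PRMT2, -0.21 for PRMT6 and -0.35 for CLNS1A in DMSO relative to AP. It was -0.54 for PRMT2, -0.48 for PRMT6, -0.53 for PRMT7, -0.24 for PRMT8 and -0.38 for CLNS1A in Taxol relative to AP. With equal totals the values were -0.31 for CARM1, -0.13 for WDR77 and -0.18 for CLNS1A in Taxol relative to DMSO, then -0.23 for PRMT2, -0.20 for PRMT6 and -0.33 for CLNS1A in DMSO relative to AP, and -0.68 for PRMT2, -0.62 for PRMT6, -0.67 for PRMT7, -0.38 for PRMT8 and -0.52 for CLNS1A in Taxol relative to AP. The median over sgRNAs was 0.075 for PRMT6 in Taxol relative to DMSO, and -0.052 for PRMT6, -0.15 for PRMT7 and 0.0084 for CARM1 in Taxol relative to AP.

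Leaving out each library in turn gave, in Taxol relative to DMSO, -0.28 to 0.040 for PRMT1, -0.32 to 0.055 for PRMT6, -0.090 to 0.11 for CARM1 and -0.089 to 0.26 for CLNS1A. In DMSO relative to AP the ranges were -0.090 to 0.40 for PRMT2, -0.012 to 0.41 for PRMT6 and -0.060 to 0.22 for CLNS1A. In Taxol relative to AP they were -0.18 to 0.31 for PRMT2, -0.0021 to 0.24 for PRMT6 and -0.18 to 0.20 for PRMT7. A planned count-model fit was not run, because the deposited values were normalized and joined in cells.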
